A study of Macaca mulatta with 15 samples.

Results

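In 2 healthy rhesus macaques, circulating CD4 naive T cells were compared after and before treatment with 2-hydroxypropyl-beta-cyclodextrin. The comparison rests on 4 of the 15 RNA-seq libraries of the series, chosen by their labels. They are 2 libraries of CD4+ naive T cells drawn after treatment and 2 drawn before it, 1 per time from each of the animals named RhDBCb and RhM22. After treatment, each animal had received a 15% (w/w) solution of Kleptose HBP, a parenteral-grade 2-hydroxypropyl-beta-cyclodextrin, under the skin, with a daily dose of 1 ml/kg over a course of at most 120 days. Before treatment, the same animals had received none. CD4 memory and CD8 memory libraries, also 2 after and 2 before from the same animals and draws, were used to see where the naive cells differed. The genotype, strain and age of the animals, the day of the later draw and the way the subsets were separated are not given in the sources used here. No animal left untreated between draws was analysed here, so treatment and the time between draws cannot be told apart.

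Naive CD4 T cells are resting helper T cells that have not yet met their antigen. They circulate between blood and lymph nodes, which they enter with the help of the chemokine receptor CCR7. Cyclodextrins are rings of sugar units with a hydrophobic cavity that takes up cholesterol, and the hydroxypropyl form is used to mobilise cholesterol from cells. In T cells, cholesterol content bears on how the antigen receptor is arranged in the membrane, and oxysterols and sterol sensors link it to gene expression.

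Markers of CD4 naive cells were present at both times, and CD8 co-receptor chains were low. CD4, the helper co-receptor, had 323 CPM in RhDBCb and 489 CPM in RhM22 after treatment, against 207 and 330.3 CPM before treatment. CD8A, the cytotoxic co-receptor chain, had 1.185 and 3.93 CPM after treatment and 1.12 and 2.34 CPM before treatment, and CD8B had 0.270 and 0.449 CPM after treatment against 0.536 and 0.570 CPM before. Here and below, CPM is a gene's count relative to the size of its library, as counts-per-million, with library sizes scaled by TMM factors, pairs of values run RhDBCb and then RhM22, and a pair change is the log2 CPM after treatment minus that before it in the same animal. LEF1, a transcription factor of naive T cells, had 727 and 727 CPM after treatment against 1021 and 652 CPM before treatment. TCF7, its partner in naive T cells, had 86.2 and 124 CPM after treatment against 85.5 and 84.0 CPM before, and KLF2, which drives exit from lymphoid tissue, had 118 and 163 CPM against 184 and 129.7 CPM. CD4 was higher after treatment in both animals, with pair changes of 0.64 and 0.57, whereas LEF1 and KLF2 were lower in RhDBCb and higher in RhM22.

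The after-treatment libraries held 71773983 counts in RhDBCb and 62143463 in RhM22, and the before-treatment libraries held 44414963 and 49515386. At these depths 1 CPM stands for 42.9 to 77.7 counts, so a level under 1 CPM rests on fewer counts than that. The before-treatment library of RhDBCb stood apart. It had the lowest total of all 15 libraries, 11506 genes with at least 10 counts against 12043 to 12425 in the other CD4 naive libraries, and 15.1% of its counts in its top 10 genes against 8.18% to 11.8%. Its correlation with the other 3 libraries over log2 CPM was 0.936 to 0.951, whereas the after- and before-treatment libraries of RhM22 correlated at 0.981. Every pair change of RhDBCb rests on that library, and the pair change of RhM22 given beside it does not.

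No gene passed the test for a change after treatment. Of 14814 genes tested with edgeR's quasi-likelihood test over all 15 libraries, with animal as a block, 0 were called at a Benjamini-Hochberg adjusted p under 0.05, a background of 0%. The smallest adjusted p was 0.897, and 603 genes had an unadjusted edgeR p under 0.05. That is under 5% of the genes tested, the share that would pass this limit with no change in any gene. DESeq2 on the same counts called 9 genes, of which 5 were higher and 4 lower after treatment. The DESeq2 adjusted p was 0.00885 for INPPL1, 0.0322 for MICAL2 and 0.0347 for BCL6, which are described below. The other 6 genes had under 1 CPM in at least 3 of the 4 libraries. Of these, ENSMMUG00000040771 had 115 CPM in RhDBCb after treatment, and ENSMMUG00000015202 had counts in that library alone, at 2.86 CPM. With 2 pairs, the smallest two-sided p that an exact sign-flip test over pairs can give is 0.5, so the genes below are described by the size and spread of their pair changes, and not as called.

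Most genes did not move alike in the animals. Among the 14814 genes, 3422 (23.1%) were higher after treatment in both animals and 3222 (21.7%) were lower in both, while 6810 moved in opposite directions. Pair changes past 1 log2 unit in both animals were found for 279 higher genes (1.88%) and 180 lower genes (1.22%), against 516 past it in opposite directions. With the deposited FPKM values in place of CPM, on the log2(FPKM + 0.1) scale, these counts were 32 higher and 13 lower. On that scale, here and below, the added 0.1 shrinks the changes of genes with FPKM near or under it. INPPL1, for example, had 0.200 FPKM in RhDBCb after treatment against 0.0208 FPKM before it. Counts and medians with FPKM are therefore not like for like with those in CPM. Past 0.5 log2 units of CPM in both animals there were 863 higher genes (5.83%) and 584 lower genes (3.94%). Both after-treatment libraries lay above both before-treatment libraries for 1606 genes (10.8%) and below them for 1422 (9.6%). With scaling by total counts alone these were 2126 above and 994 below, and that scaling moved the median pair change of all genes in RhDBCb by 0.11 on the log2 scale.

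Many of these genes had few counts. Of the 8477 genes with a mean of at least 5 CPM over the 4 libraries, 26 were higher by 1 log2 unit or more in both animals (0.307%) and 8 were lower (0.0944%), against 36 that moved past 1 log2 unit in opposite directions. Of those 36, 10 were higher after treatment in RhDBCb and lower in RhM22, and 26 were the other way round. In the same 8477 genes, CD4 memory cells had 2 higher (0.0236%) and 1 lower (0.0118%), with 11 in opposite directions, and CD8 memory cells had 6 higher (0.0708%) and 1 lower (0.0118%), with 62 in opposite directions. The pair changes had a standard deviation over these genes of 0.774 in RhDBCb and 0.416 in RhM22 in naive cells. It was 0.611 and 0.287 in CD4 memory cells and 0.656 and 0.433 in CD8 memory cells. A wider spread puts more genes past 1 log2 unit, and the genes were chosen by their level in the naive libraries. Across the 8477 genes, which are not independent replicates, the naive pair changes of the animals had a Pearson correlation of -0.01.

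**Figure D1:**
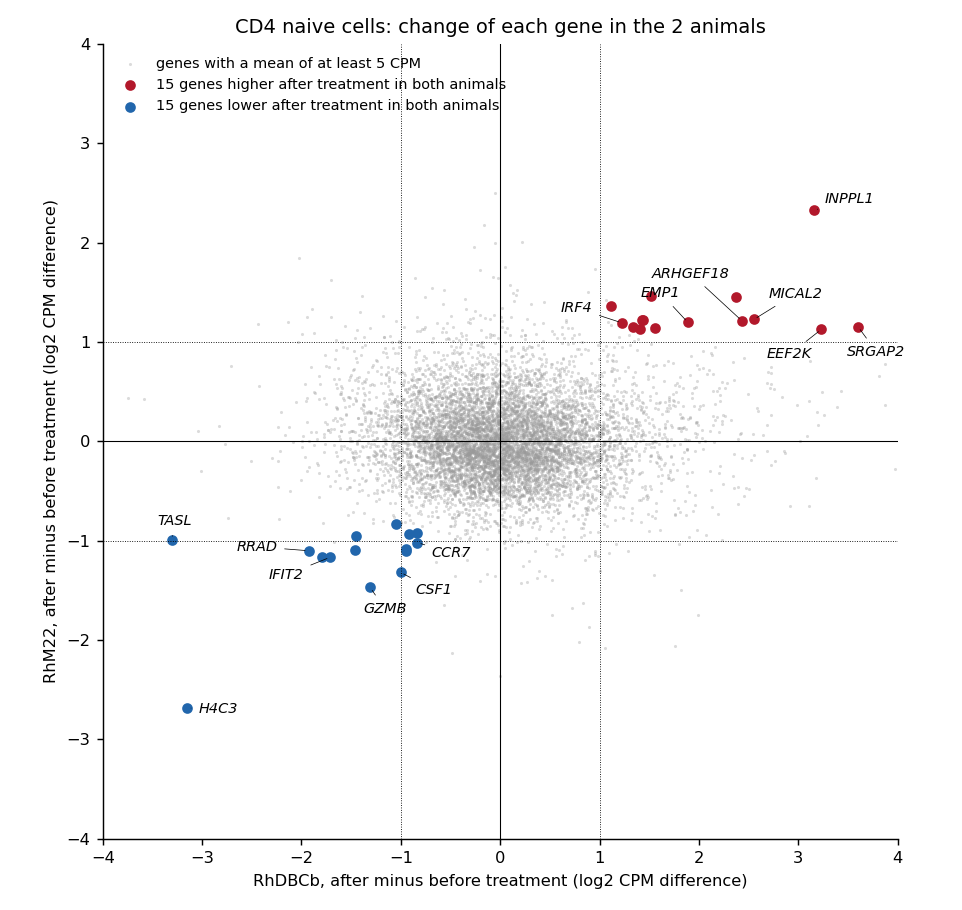
Pair change of each gene in CD4 naive cells, as log2 CPM after treatment minus before it, in RhDBCb (x axis) and RhM22 (y axis), for the genes with a mean of at least 5 CPM. Red and blue points are the 15 genes per direction with the largest change shared by both animals, dotted lines mark 1 log2 unit, and 9 genes lie beyond the axes. The cloud is wider along the RhDBCb axis than along the RhM22 axis and has no slope.

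The genes that moved furthest in the same direction in both animals are taken in 2 sets of 15, ordered by the smaller of the 2 pair changes. They were chosen by that measure, so the sizes of their changes are a description. In the higher set the smaller change ran from 1.11 to 2.33 log2 units, and the median SD of the pair changes was 0.30. In 14 of the 15 genes the change was larger in RhDBCb. For 7 of the 15 both after-treatment libraries lay above both before-treatment libraries, and for the other 8 the level of RhM22 before treatment exceeded that of RhDBCb after it. In the lower set the smaller change ran from 0.83 to 2.68 log2 units with a median SD of 0.22. The change was larger in RhDBCb for 8 genes and in RhM22 for 7, and 12 of 15 had groups that did not overlap. Over all genes tested, both after-treatment libraries lay above both before-treatment libraries for 10.8% and below them for 9.6%. Choosing genes by a large shared change favours such separation, so the counts of 7 and 12 are a description too. All 30 had an edgeR adjusted p of 0.897, with unadjusted p from 0.000438 to 0.218 in the higher set and from 0.00103 to 0.0681 in the lower set. All 30 kept their direction in both animals under each of the other scalings and prior counts tried. Having been chosen for large shared changes, they had little room to turn. The smallest of their smaller pair changes was 0.83 in the main scaling, 0.67 with total-count scaling and 0.20 on the log2(FPKM + 0.1) scale.

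First in the higher set was INPPL1 (ENSMMUG00000010451). This lipid phosphatase, which acts on phosphoinositides downstream of surface receptors, had 3.37 CPM in RhDBCb and 16.3 CPM in RhM22 after treatment, against 0.350 and 3.22 CPM before treatment. Its pair changes were 3.16 and 2.33, and its log2 fold change was 2.64 (SE 0.55). Both after-treatment libraries were above both before-treatment libraries, by a narrow margin between RhDBCb after and RhM22 before. IRF4 (ENSMMUG00000018513), a transcription factor that T cells induce on antigen receptor signalling, had 26.5 and 80.1 CPM after treatment and 11.3 and 35.02 CPM before treatment. Its pair changes, 1.23 and 1.19, were close to each other (SD 0.023), although RhM22 before treatment was higher than RhDBCb after it. MAML1, a co-activator of Notch, had 7.87 and 29.5 CPM after treatment against 2.89 and 12.6 CPM before, with pair changes of 1.43 and 1.22.

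MICAL2, an enzyme that oxidises actin filaments, had 14.8 and 22.6 CPM after treatment against 2.49 and 9.63 CPM before treatment, with pair changes of 2.55 and 1.23. ARHGEF18, which activates small GTPases, had 38.5 and 93.5 CPM after treatment and 7.11 and 40.3 CPM before treatment, with pair changes of 2.43 and 1.21. The after-treatment libraries were the higher ones in MICAL2, and in ARHGEF18 the animals overlapped by a small margin. SRGAP2, which switches such GTPases off, had 10.5 and 6.79 CPM after treatment and 0.839 and 3.04 CPM before treatment, and NCKAP5L, a microtubule-bundling protein, had 3.39 and 13.6 CPM against 0.629 and 4.95 CPM.

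The other members of the higher set have varied roles. EMP1, an epithelial membrane protein, had 24.1 and 102 CPM after treatment against 6.48 and 44.4 CPM before treatment, and SLC26A2, a sulfate transporter, had 8.68 and 17.05 CPM against 3.22 and 7.29 CPM. EEF2K, the kinase that inhibits translation elongation, had 7.06 and 12.8 CPM after treatment and 0.723 and 5.83 CPM before treatment, the second widest spread of pair changes of the set (3.23 and 1.13) after that of SRGAP2 (3.60 and 1.15). The kinase gene CSNK1G1 had pair changes of 1.34 and 1.15, MAPKBP1, a scaffold of JNK signalling, 1.56 and 1.14, and DCAF17, a receptor subunit of a ubiquitin ligase, 1.11 and 1.37. PF4, a chemokine of platelets, and RGS18, a G protein regulator abundant in platelets, complete the set and are described with the platelet markers.

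Interferon-induced genes, the chemokine receptor CCR7 and activation genes stood in the lower set. CCR7 (ENSMMUG00000002102) had 9852 CPM in RhDBCb and 5977 CPM in RhM22 after treatment, against 17550 and 12110 CPM before treatment. Both after-treatment libraries were below both before-treatment libraries, with pair changes of -0.83 and -1.02 (SD 0.13) and a log2 fold change of -0.91 (SE 0.34). BCL6 (ENSMMUG00000009198), a repressor needed for follicular helper T cells, had 3.44 and 2.05 CPM after treatment and 12.0 and 4.64 CPM before treatment, with pair changes of -1.80 and -1.16. CD83 (ENSMMUG00000020289), a surface protein of activated lymphocytes, had 272 CPM in each animal after treatment and 562 and 483 CPM before treatment, with pair changes of -1.04 and -0.83.

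IFIT2 (ENSMMUG00000061761), an interferon-induced RNA-binding protein of antiviral defence, had 23.1 and 23.6 CPM after treatment, against 75.5 and 52.9 CPM before treatment. The animals were nearly equal after treatment, and the pair changes were -1.71 and -1.17. Its neighbour in function IFIT3 had 16.1 and 20.7 CPM after treatment and 30.9 and 43.9 CPM before treatment. OASL, a relative of the oligoadenylate synthetases, had 6.63 and 2.89 CPM after treatment against 18.3 and 6.19 CPM before treatment, and without the before-treatment library of RhDBCb its log2 fold change was -0.13 against -1.37 with it. The change of IFIT2 also depended on that library, at -0.98 without it and -1.49 with it, while BCL6 had -1.14 without it and -1.53 with it.

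GZMB, the cytotoxic protease granzyme B, had 7.55 and 11.1 CPM after treatment against 18.7 and 30.7 CPM before treatment. Both after-treatment libraries were lower, with pair changes of -1.31 and -1.47 (SD 0.11). In bulk RNA such as this, fewer cells of a type and less RNA per cell cannot be told apart. The 16 tested markers of cytotoxic and natural killer cells include GZMB. Of the other 15, 3 were higher in both animals and 1 was lower in both, and their summed level was 95.8 and 67.9 CPM after treatment against 76.9 and 77.7 CPM before treatment. The lower one was GNLY, granulysin of the same granules, which had 0.876 and 1.78 CPM after treatment against 1.33 and 6.01 CPM before treatment.

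RRAD, a small Ras-related GTPase, had 72.7 and 50.5 CPM after treatment and 277 and 108 CPM before treatment, with pair changes of -1.93 and -1.10. CSF1, the macrophage growth factor, had 4.40 and 7.27 CPM after treatment against 8.86 and 18.2 CPM before treatment, and VAV3, an exchange factor of small GTPases, had 18.9 and 6.49 CPM against 36.5 and 13.95 CPM. The groups of RRAD and CSF1 did not overlap, whereas VAV3 was higher in RhDBCb after treatment than in RhM22 before it. TASL, an adaptor of endosomal Toll-like receptors, had 1.66 and 1.20 CPM after treatment and 16.7 and 2.42 CPM before treatment. Its log2 fold change was -2.45 with the before-treatment library of RhDBCb and -1.07 without it. H4C3, a histone H4 gene, had 4.34 and 1.20 CPM after treatment against 38.7 and 7.90 CPM before treatment, a value that is uncertain because near-identical histone copies share reads. GRAMD2B (pair changes -1.45 and -0.96), the replication factor RFC2 (-0.92 and -0.93) and the Arp2/3 complex subunit ARPC5L (-0.84 and -0.92) complete the set.

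**Figure D2:**
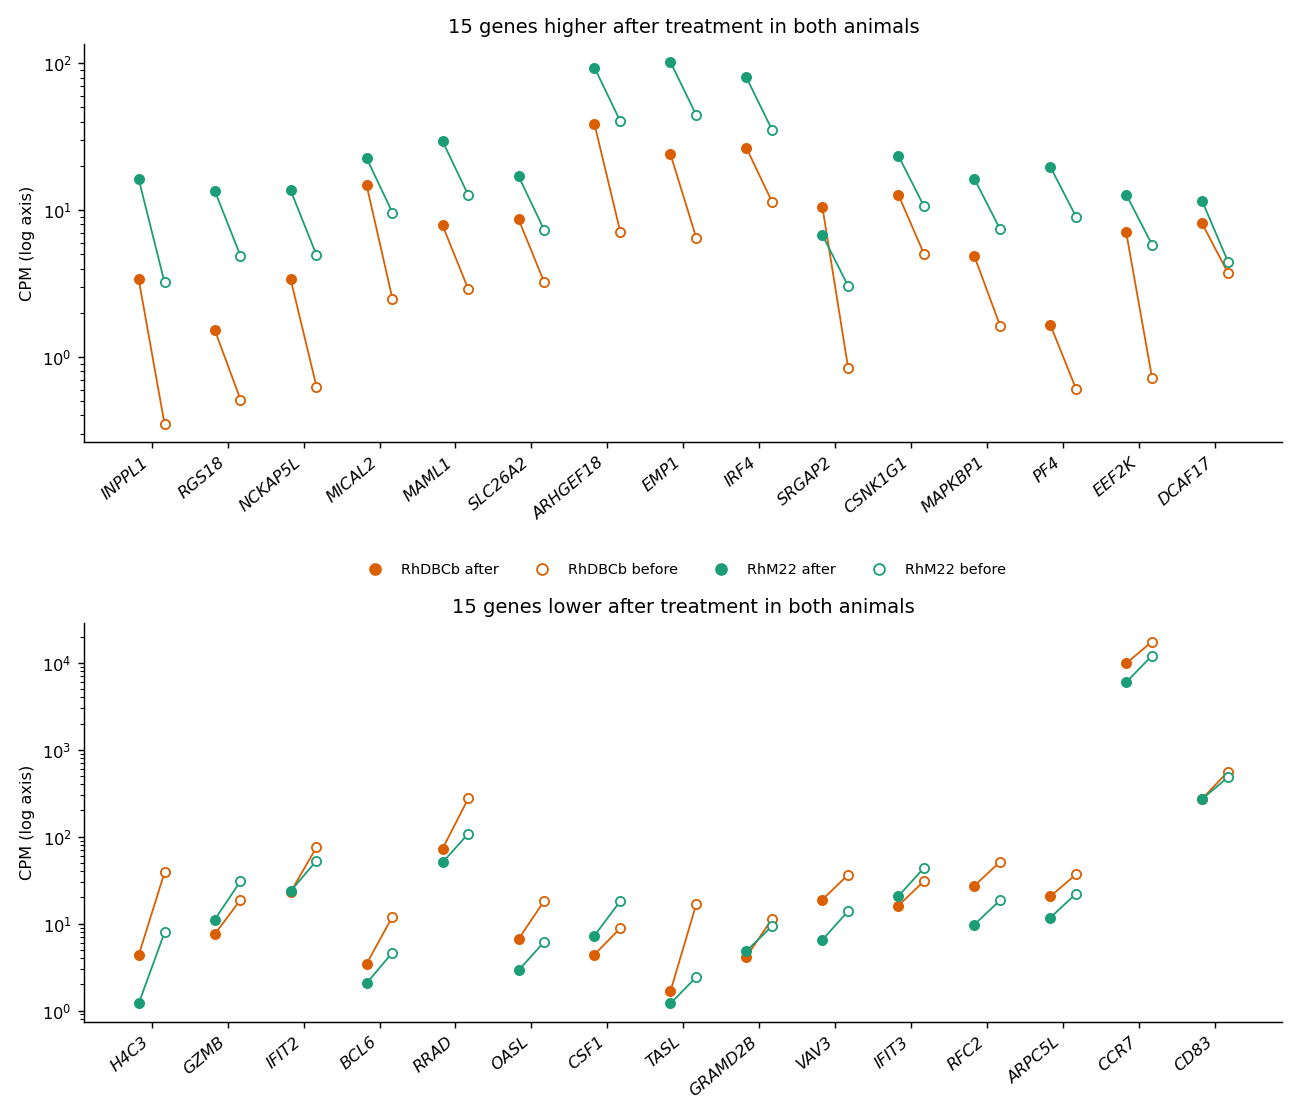
Level of the 15 genes higher (top) and the 15 genes lower (bottom) after treatment in both animals, as CPM on a log axis. Filled points are after treatment and open points before it, lines join the libraries of 1 animal, with RhDBCb in orange and RhM22 in green. Every line slopes the same way within a panel, and in the top panel RhM22 before treatment often lies above RhDBCb after it, as for IRF4, at 26.5 CPM in RhDBCb after treatment and 35.02 CPM in RhM22 before it.

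Of 29 pathway lists, 4 had a median pair change above 0 in both animals, 5 below 0 in both and 20 of opposite sign. None held a called gene. NF-kB, the transcription factor family behind many inflammatory and activation genes, gave 1 of the 5 lists below 0 in both, with medians of -0.26 in RhDBCb and -0.38 in RhM22, against 0 and 0 over all genes. Of its 26 tested members, 12 (46.2%) were lower after treatment in both animals and 1 (3.85%) was higher in both, against 21.7% and 23.1% of all genes. With scaling by total counts alone, which moves list medians of RhDBCb upward throughout, the median was -0.10 in RhDBCb, and 9 were lower in both animals and 1 higher.

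The NF-kB members that were lower in both animals include feedback inhibitors and targets. NFKBIE, an inhibitor that holds NF-kB in the cytoplasm, had 38.7 and 22.9 CPM after treatment and 60.6 and 36.3 CPM before treatment, with pair changes of -0.65 and -0.66. NFKBIA, the inhibitor of the same kind that NF-kB itself induces, had 779 and 804 CPM after treatment and 2469.5 and 1057 CPM before treatment, and TNFAIP3, a ubiquitin-editing brake, had 1315 and 1653 CPM against 3429 and 1947 CPM. The lymphotoxin genes LTA, with 20.2 and 25.0 CPM after treatment against 37.6 and 39.0 CPM before, and LTB, with 751 and 385 CPM against 1168 and 544 CPM, were also lower in both. The subunit genes NFKB1 (pair changes 0.93 and -0.58), RELA (0.44 and -0.38) and RELB (0.85 and -1.19) were higher in RhDBCb and lower in RhM22, and so was the co-regulator BCL3 (0.89 and -1.87).

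Interferon-gamma and antigen presentation genes had medians of -0.12 and -0.49, and 9 of 19 members were lower in both animals against 1 higher. With total-count scaling the median of RhDBCb was 0.05 and 6 members were lower in both, so the direction in that animal depends on the scaling. B2M, the light chain shared by class I molecules, had 20284 and 18629 CPM after treatment and 39865 and 23817 CPM before treatment. IRF1, a transcription factor of the interferon-gamma response, had 758 and 1246 CPM after treatment against 976 and 1669 CPM before treatment, and CD74, the invariant chain of class II, had 403 and 219 CPM against 568 and 307 CPM. PSMB8, an immunoproteasome subunit, moved little in RhDBCb (0.17) and was lower in RhM22 (-1.02).

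Type I interferon-stimulated genes split by animal, with medians of 0.32 in RhDBCb and -0.35 in RhM22. Of 46 tested, 13 were higher in both animals, 9 were lower in both and 24 moved in opposite directions. IFIT1, with 3.79 and 5.39 CPM after treatment and 6.99 and 9.55 CPM before treatment, was lower in both animals alongside IFIT2, IFIT3 and OASL. Against these, DDX60, an antiviral helicase, had 15.1 and 19.0 CPM after treatment against 8.55 and 12.2 CPM before treatment, and IFI44 had 2.37 and 2.97 CPM against 0.0466 and 1.63 CPM. MX1, a GTPase that blocks viruses, showed the split, with 63.9 and 39.9 CPM after treatment and 7.37 and 62.9 CPM before treatment. Its before-treatment libraries stood further apart than its after-treatment libraries, and RhDBCb before treatment was the lowest of the 4.

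Immediate early genes, which cells switch on within minutes of a stimulus or of handling, also split by animal. Their medians were -0.72 in RhDBCb and 0.14 in RhM22, and 20 of 33 moved in opposite directions. The summed level of the list was 13085 and 16727 CPM after treatment, against 39777 and 15372 CPM before treatment, so the before-treatment library of RhDBCb was the high one. JUN, a subunit of the AP-1 factor, had 146 and 140.5 CPM after treatment and 1199 and 130.5 CPM before treatment, and FOS, its partner, had 3369 and 4101 CPM against 13066 and 3090 CPM. EGR1, a zinc-finger factor of the same class, was higher in both animals, with 2.90 and 7.03 CPM after treatment against 0.886 and 1.43 CPM before treatment. Its unadjusted p was 0.00624 in edgeR, with an adjusted p of 0.897.

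**Figure D3:**
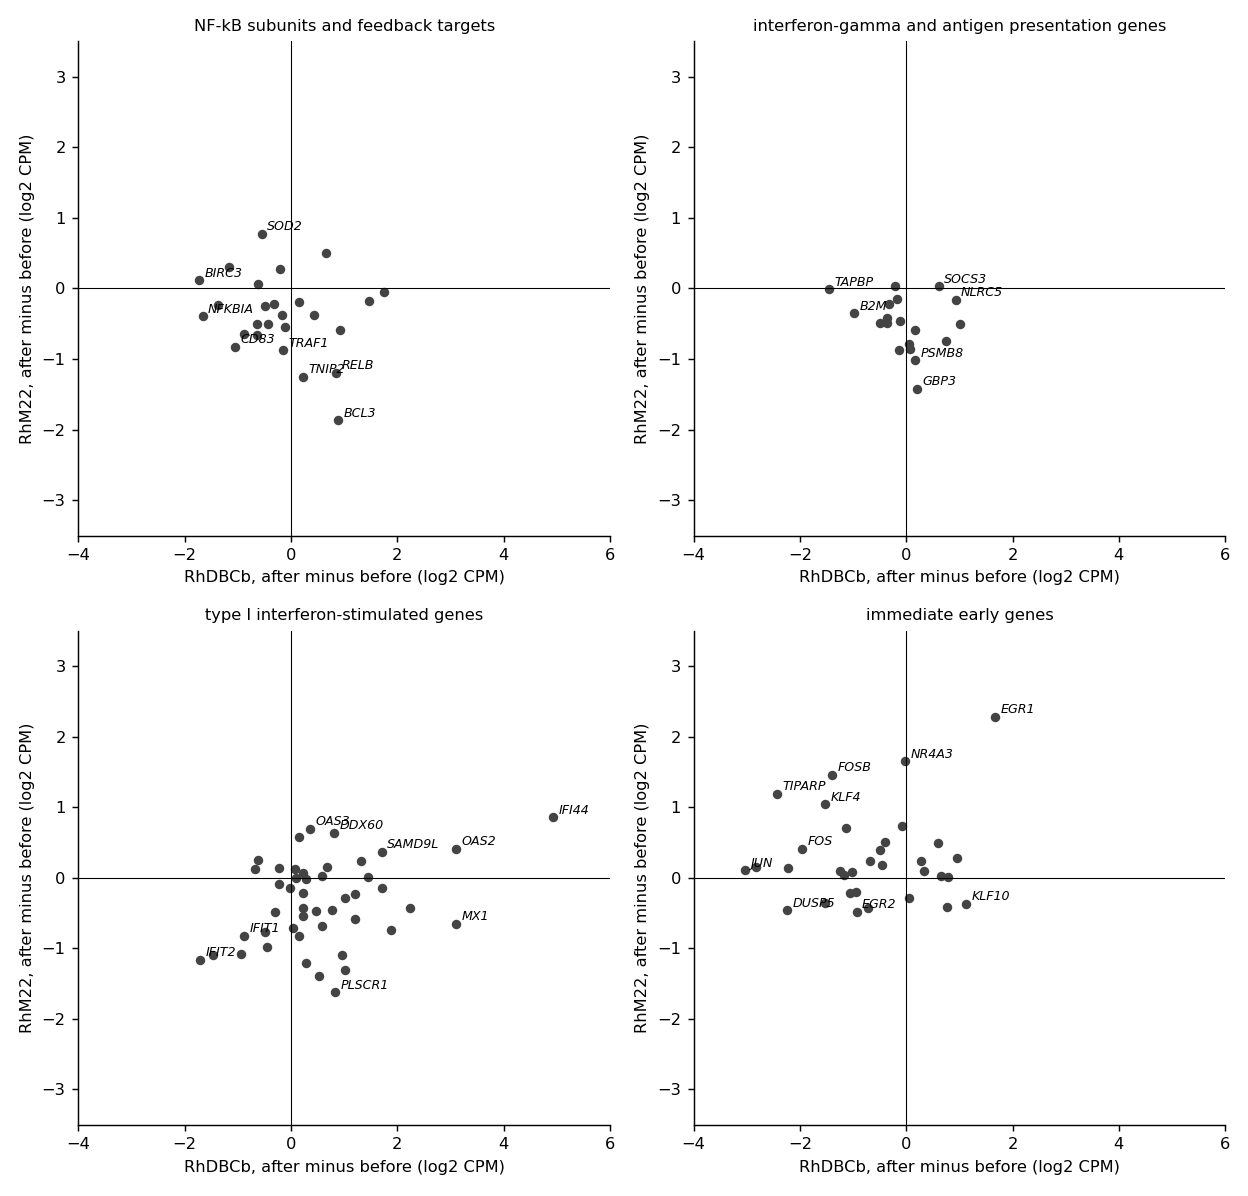
Pair changes of the tested members of 4 gene lists in CD4 naive cells, as log2 CPM after treatment minus before it, in RhDBCb (x axis) and RhM22 (y axis). Each point is a gene, and points below and left of 0 were lower after treatment in both animals. NF-kB genes lie mostly below 0 on the RhM22 axis, and immediate early genes are spread along the RhDBCb axis.

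Glucocorticoid-responsive genes had a median of -0.45 in RhDBCb and 0.14 in RhM22. FKBP5, a co-chaperone that the glucocorticoid receptor induces, was lower in both animals, with 269 and 504 CPM after treatment and 639 and 765 CPM before treatment, and pair changes of -1.25 and -0.60. MT2A, a metallothionein, was higher in both, with 3.35 and 4.49 CPM after treatment against 1.86 and 2.87 CPM before. TSC22D3, another target of the receptor, had 7201 and 5144 CPM after treatment against 20095 and 5720.3 CPM before, a difference seen mainly in RhDBCb. Of the 25 members, 7 were higher and 8 lower in both animals. Among clock genes RORA was lower in both, with 58.5 and 37.4 CPM after treatment and 132 and 53.1 CPM before treatment, and NPAS2 had 0.348 and 0.883 CPM against 2.35 and 1.53 CPM. The hour of each draw is not given in the sources used here.

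Cholesterol synthesis and uptake genes had medians of 0.11 in RhDBCb and 0.09 in RhM22. In RhDBCb the median was 0.014 over members with a mean of at least 5 CPM and 0.28 with total-count scaling. Of 25 tested members 5 were higher in both animals, 2 were lower in both and 18 moved in opposite directions, with 0 past 0.5 log2 units in both animals in either direction. HMGCS1, an early enzyme of cholesterol synthesis, had 20.6 and 69.6 CPM after treatment and 54.8 and 28.2 CPM before treatment, lower in RhDBCb and higher in RhM22. SREBF2, the transcription factor that drives the pathway, had 73.6 and 91.2 CPM after treatment against 26.2 and 77.2 CPM before treatment. INSIG1, the retention protein of that factor, had 279 and 282 CPM after treatment against 367 and 202 CPM before treatment.

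The 12 tested sterol efflux and LXR target genes had medians of 0.53 in RhDBCb, where FPKM gave 0.25, and -0.05 in RhM22. Of them 2 were higher and 0 lower in both animals. ABCA1, the cholesterol exporter that LXR induces, had 3.71 and 8.11 CPM after treatment and 0.606 and 8.94 CPM before treatment, and ABCG1, a related exporter, had 89.2 and 104 CPM against 138 and 101 CPM. In both genes the pair change of RhM22 was small, at -0.14 for ABCA1 and 0.04 for ABCG1. Lysosome and sterol trafficking genes had medians of 0.23 in RhDBCb and -0.01 in RhM22, where FPKM gave 0.01, with 8 of 33 higher and 4 lower in both animals, among them NPC1, the lysosomal cholesterol exporter, at 13.2 and 14.0 CPM after treatment against 9.30 and 12.5 CPM before. Fatty acid synthesis genes had medians of 0.43 in RhDBCb, where FPKM gave 0.12, and -0.07 in RhM22, with 2 of 11 higher and 1 lower in both.

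The 24 chemokine receptor and homing genes had medians of -0.06 and 0.07, with 9 higher and 6 lower in both animals, and with total-count scaling the median of RhDBCb was 0.10. GPR183, a receptor for oxysterols that places lymphocytes within lymphoid tissue, had 4341 and 3138 CPM after treatment against 8026 and 4763 CPM before treatment, with pair changes of -0.89 and -0.60. S1PR1, the receptor for exit from lymph nodes, had 1279 and 1167 CPM after treatment against 1589 and 1584 CPM before. ITGAL, the integrin chain that binds ICAM-1, was higher in both, with 141 and 197 CPM after treatment and 81.6 and 122 CPM before treatment, and CCR6, a receptor of Th17-type cells, had 27.9 and 8.22 CPM against 15.9 and 5.26 CPM. CCR10 lay at 0 CPM in 1 before-treatment library and at most 0.773 CPM in the others. The 24 naive and quiescence genes had medians of -0.25 and 0.07, with 7 higher and 6 lower in both animals.

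Cytokine signalling genes included a few large shared differences within a list that did not move together (medians 0.35 and -0.18, with 8 of 34 higher and 4 lower in both animals). CISH, the feedback inhibitor that STAT5 induces, had 86.5 and 275 CPM after treatment and 5.87 and 159.8 CPM before treatment, with pair changes of 3.87 and 0.78. PIM3, a survival kinase downstream of cytokine receptors, had 52.4 and 47.3 CPM after treatment and 90.5 and 85.3 CPM before treatment, and IFNGR2, a chain of the interferon-gamma receptor, had 59.1 and 81.8 CPM against 89.6 and 121 CPM. The groups of PIM3 and IFNGR2 did not overlap. Among T helper lineage factors (medians 0.27 and -0.10, and with FPKM 0.08 and -0.01), PRDM1, the repressor that opposes BCL6, had 4.48 and 11.3 CPM after treatment against 12.2 and 17.5 CPM before treatment, so that both repressors were lower. ZEB1, a repressor of IL-2, had 139 and 92.5 CPM after treatment against 199 and 149 CPM before treatment.

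T cell receptor signalling genes had medians of -0.05 and 0.24, the first 0.12 with total-count scaling, with 8 of 33 higher and 5 lower in both animals. NFATC2, a factor activated by calcium, had 28.6 and 53.6 CPM after treatment and 18.6 and 32.2 CPM before treatment. LCK, the kinase that starts the signal, had 1243 and 796 CPM after treatment against 1517 and 1034 CPM before. T cell activation markers had medians of 0.33 and -0.16 and held IRF4 among those higher in both animals, while TNFRSF9 and LAG3, both at most 1.49 CPM, were lower in both. Among memory genes (medians 0.12 and -0.05), AQP3, a glycerol channel, had 8.07 and 13.0 CPM after treatment against 3.12 and 7.94 CPM before treatment.

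**Figure D4:**
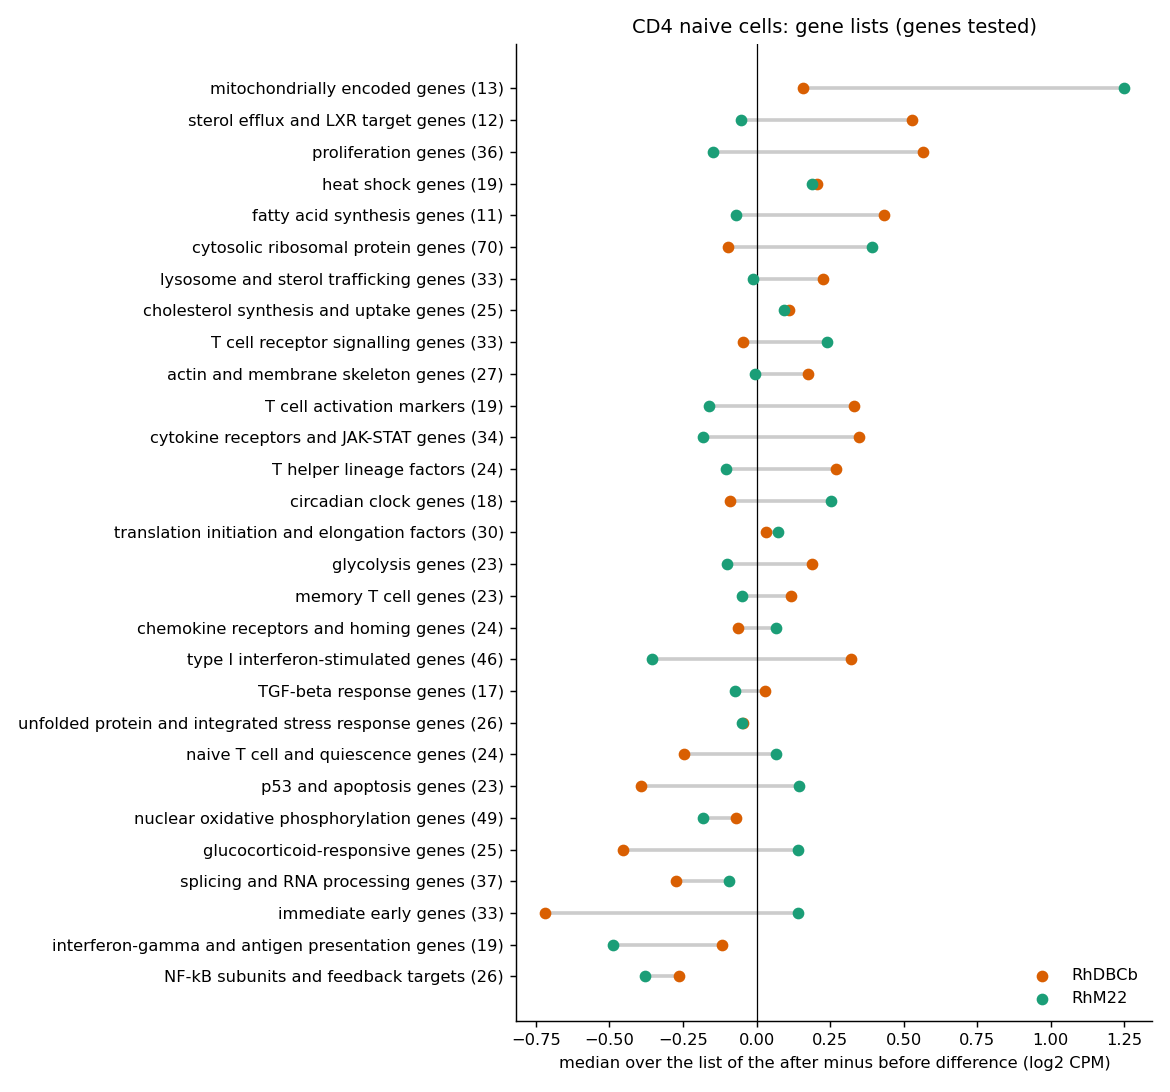
Median pair change of 29 pathway lists in CD4 naive cells, as log2 CPM after treatment minus before it, for RhDBCb (orange) and RhM22 (green), with the number of tested members in brackets. Lines join the animals, and 20 of the 29 lists have medians of opposite sign, with NF-kB genes at -0.26 and -0.38.

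Cytoskeletal genes were split more within themselves than between animals. Of 27 actin and membrane skeleton genes, 11 were higher after treatment in both animals, 10 were lower in both and 6 moved in opposite directions, with medians of 0.18 and -0.00 that in RhM22 turned to 0.01 with total-count scaling. FLNA, which crosslinks actin filaments, had 457 and 1186 CPM after treatment and 224 and 752 CPM before treatment, and MYH9, the heavy chain of non-muscle myosin, had 259 and 515 CPM against 133 and 355 CPM. TUBA1A, a tubulin, had 2280.3 and 3059 CPM after treatment against 1542 and 2145 CPM before treatment, groups that did not overlap. Among small actin regulators that were lower in both, TMSB4X, which holds actin monomers, had 7753 and 6379 CPM after treatment and 12679 and 7631 CPM before treatment, and PFN1, profilin, had 633 and 505 CPM against 957 and 602 CPM.

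Transcripts encoded in the mitochondrial genome were higher in both animals for 10 of 13 genes (76.9%) and lower in both for 0. Over all genes tested these shares were 23.1% and 21.7%. The medians were 0.16 in RhDBCb and 1.25 in RhM22, so the size was set by RhM22. Their summed level was 10102 and 21875 CPM after treatment, against 9246.5 and 8749 CPM before treatment, and the high library was that of RhM22 after treatment. ND4L, a subunit of respiratory complex I, had 84.6 and 150.1 CPM after treatment and 48.9 and 70.7 CPM before treatment, and its groups did not overlap. It was the only 1 of the 13 that was higher by at least 0.5 log2 units in both animals. Nuclear genes of the same respiratory chain had medians of -0.07 and -0.18, with 19 of 49 lower and 4 higher in both animals, though with total-count scaling the median of RhDBCb was 0.09 and 14 were lower and 8 higher in both. NDUFB8, a complex I subunit, had 106 and 61.9 CPM after treatment and 177 and 89.8 CPM before treatment, NDUFS6 had 37.1 and 25.2 CPM against 53.5 and 37.4 CPM, and the complex III gene UQCRQ had 34.4 and 28.3 CPM against 56.6 and 40.7 CPM.

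Cytosolic ribosomal protein genes had medians of -0.10 in RhDBCb, which was 0.07 with total-count scaling, and 0.39 in RhM22. Of 70 tested, 26 were higher in both animals and 5 lower, none of them past 0.5 log2 units in both. Splicing and RNA processing genes had medians of -0.27 and -0.09, with 12 of 37 lower and 3 higher in both animals. Heat shock genes had medians of 0.20 and 0.19, with 7 of 19 higher and 2 lower in both, among them the chaperone HSP90AB1 at 793 and 1263 CPM after treatment against 493 and 981 CPM before treatment. Genes of the unfolded protein and integrated stress responses had medians of -0.05 in each animal, with 10 of 26 lower and 5 higher in both, and a median of 0.12 in RhDBCb with total-count scaling. Among them, HSPA5, the chaperone BiP of the endoplasmic reticulum, had 3969 and 3718 CPM after treatment against 5021.5 and 5334 CPM before, and SDF2L1, a chaperone of the same compartment, had 43.7 and 20.2 CPM against 67.5 and 37.7 CPM.

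The p53 and apoptosis genes had medians of -0.39 and 0.14, with 3 of 23 higher and 7 lower in both animals. BCL2L11, which encodes the death-promoting protein BIM, had 32.4 and 89.2 CPM after treatment against 14.6 and 46.2 CPM before treatment. GADD45B, a stress gene that NF-kB induces, had 133 and 145 CPM after treatment and 262 and 232 CPM before treatment, with groups that did not overlap. Proliferation genes had medians of 0.57 in RhDBCb, where FPKM gave 0.19, and -0.15 in RhM22, where it gave -0.05, and 9 of 36 were higher and 5 lower in both animals. Members under 1 CPM in all 4 libraries were, for example, PLK1, at 0.695 and 0.947 CPM after treatment against 0.0932 and 0.326 CPM before, and TYMS, at 0.129 and 0.0321 CPM against 0.513 and 0.122 CPM. Glycolysis genes (medians 0.19 and -0.10), TGF-beta response genes (0.03 and -0.07) and translation factors (0.03 and 0.07) had medians near 0.

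Of 21 tested platelet markers, 12 were higher after treatment in both animals and 0 lower in both, against 23.1% and 21.7% of all genes, and none was called. The medians were 1.42 in RhDBCb and 0.43 in RhM22, and with FPKM 0.56 and 0.17. Of the 12, 8 were past 0.5 log2 units in both animals. Their summed level was 50.1 CPM in RhDBCb and 152 CPM in RhM22 after treatment, against 13.8 and 92.2 CPM before treatment. PF4 had 1.66 and 19.8 CPM after treatment and 0.606 and 9.02 CPM before treatment, RGS18 had 1.53 and 13.6 CPM against 0.513 and 4.89 CPM, and PPBP, another platelet chemokine, had 15.3 and 68.9 CPM against 2.33 and 42.5 CPM. The level differed more between the animals than between times, since RhM22 before treatment exceeded RhDBCb after it in all 3 genes. GP9, a subunit of the platelet adhesion receptor, had 0.708 and 0.514 CPM after treatment and 0 and 0.346 CPM before treatment. PF4 and RGS18 belong to the higher set above, and the part of platelet RNA in those 2 differences was not tested.

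The summed B cell markers were higher after treatment in both animals, and those of monocytes, neutrophils and erythroid cells moved in opposite directions. The CD8 lineage sum, mostly from a gene also present in CD4 cells, was higher in RhDBCb and changed little in RhM22. The 14 tested B cell markers summed to 44.2 and 36.0 CPM after treatment and 35.8 and 31.5 CPM before treatment, with 4 higher and 3 lower in both animals. The 2 with a mean of at least 5 CPM were both higher in both animals, with medians of 0.73 and 0.23. They are CD79A, of the B cell antigen receptor, with 25.0 and 19.9 CPM after treatment against 19.9 and 18.9 CPM before, and CR2, a complement receptor, with 13.1 and 11.3 CPM against 5.92 and 8.68 CPM. Both were named after their values were seen, and the part of B cell RNA in the results above was not tested. Monocyte and dendritic cell markers summed to 14.2 and 21.7 CPM against 19.9 and 11.3 CPM, with 1 of 17 higher and 3 lower in both, and neutrophil markers to 0.966 and 0.835 CPM against 3.24 and 0.591 CPM, with 0 of 9 higher and 1 lower in both. Erythroid markers summed to 2.25 and 17.6 CPM after treatment and 3.45 and 9.47 CPM before treatment, with 1 of 7 higher and 0 lower in both animals. The 6 CD8 lineage markers summed to 75.9 and 149.7 CPM after treatment and 39.7 and 147 CPM before treatment, mostly from RUNX3, a transcription factor that is also present in CD4 cells, at 68.6 and 135 CPM against 32.4 and 128 CPM.

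Gene length differed between the genes that were higher and those that were lower in both animals. Length was read from the ratio of counts to FPKM, relative to the median gene tested. Among genes with a mean of at least 5 CPM, the 245 that were higher by 0.5 log2 units or more in both animals had a median relative length of 2.15, and the 129 that were lower had 0.514, against 1.181 over all 8477. Split by length into 5 groups, the shortest held 25 of the higher and 52 of the lower genes past 0.5 log2 units in both animals, and the longest held 91 higher and 15 lower. Over all genes of a group, the median pair change rose with length in RhM22, from -0.104 in the shortest to 0.130 in the longest. In RhDBCb it did not, at -0.065 in the shortest, 0.045 in the middle group and -0.028 in the longest. The 15 genes of the higher set had a median relative length of 1.84 and the 15 of the lower set 0.690. The part of RNA quality or library preparation in this relation was not tested.

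The naive changes were set beside those of the memory cells of the same draws. With 2 pairs per subset, a count of 0 called genes cannot tell a shared change from a differing one. Tests of the naive change minus the CD4 memory change, and minus the CD8 memory change, called 0 of 14814 genes each (0%). In edgeR, 195 and 231 genes had an unadjusted p under 0.05, each under 5% of the genes tested, with a smallest adjusted p of 1. DESeq2 called 1 gene without a symbol in the comparison with CD4 memory cells and 0 in that with CD8 memory cells. The called gene was ENSMMUG00000015202, which among the CD4 naive libraries had counts only in RhDBCb after treatment. Of the 5 genes with the smallest p against CD4 memory cells, PEAK1, IGFBP2, AGRN and NCKAP1 were under 1 CPM in every CD4 naive library. The other was ATN1, which had 2.51 and 3.13 CPM after treatment and 7.43 and 5.74 CPM before treatment and a naive minus CD4 memory difference of -2.11 (SE 0.60). Against CD8 memory cells, the 5 held BICDL2 and AFAP1L2, which were under 1 CPM in at least 3 of the 4 CD4 naive libraries. INPPL1 had a naive minus CD8 memory difference of 2.93 (SE 0.74), TRO of -3.48 (SE 0.88) and AMPD3 of 5.44 (SE 1.41). All had an edgeR adjusted p of 1. The log2 fold changes in naive and CD8 memory cells were 2.64 and -0.29 for INPPL1 and -1.37 and 2.11 for TRO. For AMPD3 they were -0.24 and -5.68, so its difference lay in the CD8 memory cells.

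Of the 15 genes lower in naive cells, 12 were also lower in both CD4 memory pairs, against 24.1% of the 8477 genes with a mean of at least 5 CPM. In both CD8 memory pairs 4 were lower and 3 higher, against 17.9% and 17.3% of those genes. IFIT2 had pair changes of -1.36 in RhDBCb and -1.56 in RhM22 in CD4 memory cells and -0.50 and -1.36 in CD8 memory cells, and BCL6 had -1.27 and -0.84 in CD4 memory and -1.30 and -0.63 in CD8 memory cells. CCR7 had small changes in CD4 memory cells (-0.25 and -0.15) and positive ones in CD8 memory cells (0.44 and 0.16). Its naive change minus the CD8 memory change was -1.17 (SE 0.47, edgeR adjusted p = 1). GZMB was lower in naive cells and higher in CD8 memory cells, at 0.84 and 0.66, with a difference of -2.11 (SE 0.59, edgeR adjusted p = 1). Of the 15 genes higher in naive cells, 6 were higher in both CD4 memory pairs, against 24.1% of those 8477 genes, and 6 in both CD8 memory pairs, against 17.3%, with 0 lower in both pairs of either subset. Their median change was 1.17 in RhDBCb and 0.31 in RhM22 in CD4 memory cells, and 1.27 and -0.04 in CD8 memory cells. IRF4 had 0.64 and 0.91 in CD4 memory cells and 0.28 and -0.18 in CD8 memory cells, and its naive change minus the CD4 memory change was 0.44 (SE 0.66).

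**Figure D5:**
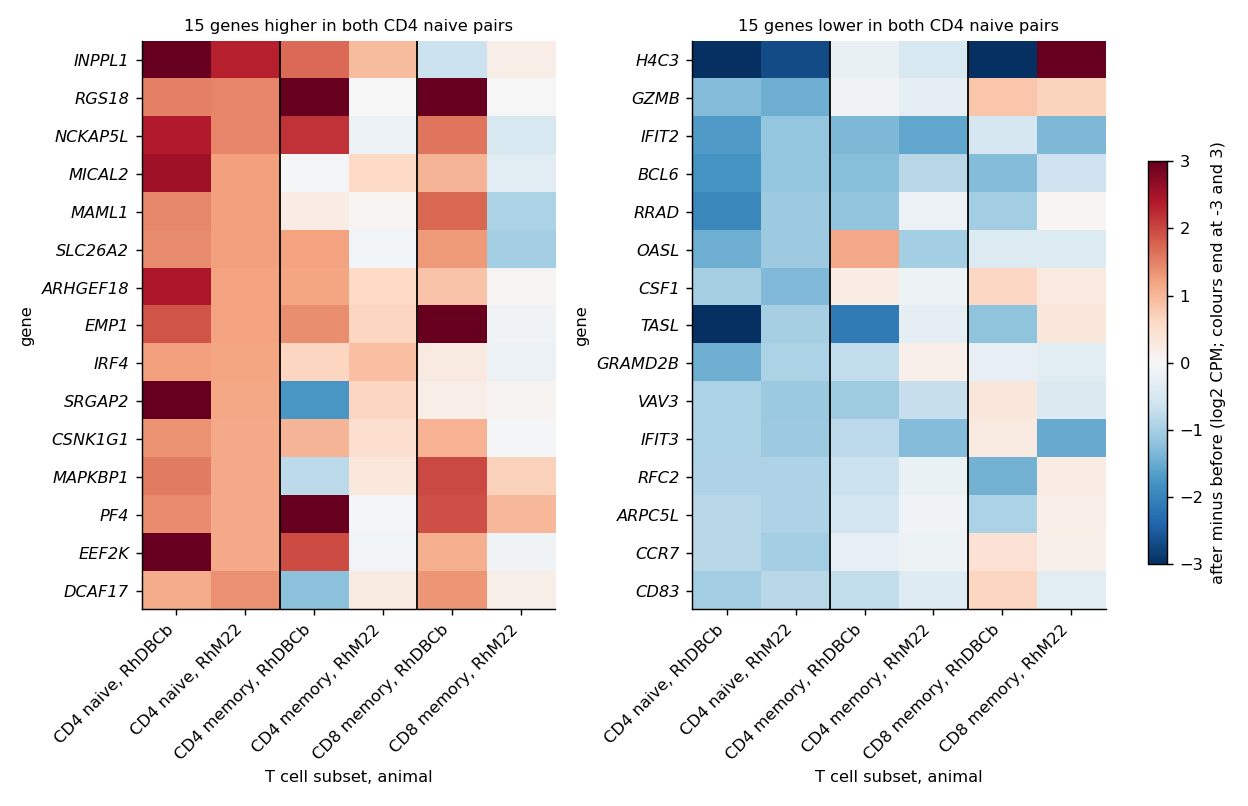
Pair changes (log2 CPM after treatment minus before it, colour scale ending at -3 and 3) of the 15 genes higher (left) and the 15 genes lower (right) in both CD4 naive pairs, in CD4 naive, CD4 memory and CD8 memory cells of each animal. Columns are subset and animal, rows are genes. In CD4 memory cells 12 of the 15 lower genes are below 0 in both animals, and 6 of the 15 higher genes are above 0 in both. The median change of the higher genes there is 1.17 in RhDBCb and 0.31 in RhM22.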

How the data were processed

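Per the labels, polyadenylated RNA of blood T cell subsets was made into cDNA with SMART-Seq v4, a kit that does not mark strand, so reads of a gene and of an overlapping antisense gene cannot be told apart. The authors deposited RSEM expected counts per gene and FPKM, in separate tables of 34884 and 28331 genes. The submitters' processing notes name RSEM 1.3.3, STAR 2.7.6a, cutadapt 1.18 and, as builds, Mmul_10 and rheMac10. The deposited expected counts were taken to the nearest whole number, and this changed no library total by more than 26.1. Of the genes, 14814 passed edgeR's filter by group with a minimum count of 10. They were scaled with TMM and tested with edgeR 4.0.16 (R 4.3.3, limma 3.58.1) over all 15 libraries, with 8 subset-by-time groups and animal as a block, which left 6 residual degrees of freedom. The labels name the animal of each library, which gives the pairing, and deviations from the group means of the same animal correlated at 0.317 between times. P-values were adjusted over all genes tested, and a standard error is the log2 fold change divided by the root of F.

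Pair changes used log2 CPM with a prior count of 2, and the test was checked on simulated data. Alternatives were other scalings, filters and prior counts, DESeq2 1.42.0, the deposited FPKM values with a pseudocount of 0.1, other designs and leaving out each library. Named were the 15 genes per direction with a symbol, a mean of at least 5 CPM and the largest smaller pair change, up to 3 members per list and direction with at least 0.5, up to 6 per direction of disagreement, the 5 with the smallest p in each comparison with memory cells, and the markers of the label check. A few genes that these rules name are not reported here. Other list members in the text were chosen after their values were seen. The members and lists were chosen with earlier results of these data known. Gene symbols came from the deposited table and a table of gene names. Nothing gives replicate cultures within an animal and time, so the p-values measure the spread between these libraries. Sequences and gene positions are not used here.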

Additional observations from a re-analysis of the deposited data

Results flagged for a closer look

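Among the 8477 genes with a mean of at least 5 CPM, 36 moved past 1 log2 unit in opposite directions in the animals. The 12 given here are the 6 per direction with a symbol and the largest smaller pair change. Each animal has 1 pair, so the difference between the animals was not tested. Given below is the pair change of RhM22 minus that of RhDBCb.

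Genes that were higher after treatment in RhDBCb and lower in RhM22 included regulators of cytokine responses. STAT3, the factor downstream of IL-6-type cytokines, had 988 CPM in RhDBCb and 748 CPM in RhM22 after treatment, against 461 and 1631 CPM before treatment, a difference of -2.225. BATF, an AP-1 partner in T cell differentiation, had 9.40 and 5.15 CPM after treatment and 4.52 and 21.9 CPM before treatment, a difference of -3.134. SBNO2 had 6.95 and 11.6 CPM after treatment against 2.03 and 48.6 CPM before treatment (-3.824). The other genes were B4GALNT1 (-3.743), SLC9B2 (-3.317) and TAF4B (-2.395). In all 6 the before-treatment libraries were the highest and the lowest of the 4.

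In the opposite sense, FOSB, an immediate early gene, had 40.9 and 202 CPM after treatment and 107 and 73.6 CPM before treatment, a difference of 2.854. HMGCS1, of cholesterol synthesis, differed by 2.711. ACVR1B differed by 3.33, BPNT1 by 3.225, MSL2 by 2.952 and ZDHHC17 by 3.337, and these 4 had at most 17.7 CPM in any CD4 naive library.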

How the results depend on the processing

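The count of 0 called genes held in edgeR with other size factors, with no filter (19911 genes), with an animal-by-time term, on the 4 CD4 naive libraries alone with a replicate block (1 residual degree of freedom) and without each of the 15 libraries, where the smallest adjusted p was 0.0731, without RhM22 before treatment. Without the replicate block, 0 were called and 182 genes had an unadjusted p under 0.05, against 603 with it. DESeq2 called 9 genes, and 1 in the comparison with CD4 memory cells; the cause was not tested. Genes past 1 log2 unit were 110 higher, 57 lower and 206 opposite with a prior count of 10, 32, 13 and 45 with FPKM, and 26, 8 and 36 with a mean of at least 5 CPM, where 857 genes lay above and 842 below without overlap. A limit of 0.5, chosen after seeing the data, gave 863 higher and 584 lower. Of 1800 values for 86 named genes, 1789 kept direction and side of the threshold, 3 passed it with DESeq2 and 8 turned. Those 8 were in 7 genes and in none of the 30 of the leading sets, which were chosen for large shared changes. Most of the 86 were chosen for moving the same way in both animals, and edgeR called none of them. Most values thus had little room to turn, and none had a call in edgeR to lose. The flagged genes that moved in opposite directions are not among the 86. Without 1 library at a time, log2 fold changes ran from -2.46 to 0.52 for AIF1, -2.24 to 0.071 for GNLY, -3.95 to 1.00 for CAMP, -1.46 to 3.60 for HEMGN, -0.68 to 0.37 for LEF1, -0.50 to 0.20 for KLF2 and -0.24 to 0.99 for CD8A. Of 186 list medians, 15 moved by more than the spread between animals. The depth limits values under 1 CPM, which rest on at most 77.7 counts.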
